A study of Homo sapiens with 4 samples.

Results

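The genes described here encode membrane-anchored serine proteases with a principal inhibitor: TMPRSS11D, TMPRSS11E, TMPRSS11F, TMPRSS2, TMPRSS4, TMPRSS13, HPN, ST14, PRSS8 and SPINT1. They are 10 of the 19974 protein-coding genes of the RefSeq table on chromosomes 1 to 22 and X. The set was chosen by the presence of called peaks at gene ends: TMPRSS11F and TMPRSS13 had such a peak in both libraries with FOXD2 and in no control, and the other members are their relatives and partners. The gene-end peaks of TMPRSS11F and TMPRSS13 are therefore given as a description, with no test. For each gene, all called peak intervals inside the gene and to 50 kb on each side were taken, and 0 of the 10 windows overlapped another. Merged across libraries, the windows held 141 of the 122856 regions of the series.

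HCT116, a colorectal carcinoma cell line, was assayed by ATAC-seq: the transposase Tn5 inserts sequencing adapters where chromatin is accessible. Control cells (2 libraries) carried the empty pSin vector and FOXD2 cells (2 libraries) carried pSin encoding full-length FOXD2, which is a transcription factor of the forkhead family. Both were delivered by lentivirus, and both kinds of stable cells were kept under puromycin, so the groups share the vector backbone and the selection. The labels name no promoter for the insert, no clone and no separate cultures, so the spread between libraries of a group may be technical.

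Type II transmembrane serine proteases are trypsin-like enzymes held in the plasma membrane by an N-terminal anchor, with the catalytic domain outside the cell. They are made as inactive precursors and are switched on by cleavage. In gut and skin epithelium matriptase (ST14) and the lipid-anchored protease prostasin (PRSS8) act together in barrier formation, and the Kunitz-type inhibitor HAI-1 (SPINT1) holds matriptase in check. The TMPRSS11 genes are paralogues in a cluster on chromosome 4 and are best known from airway and squamous epithelium.

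The control lists held 77752 (replicate 1) and 72796 (replicate 2) intervals, and the FOXD2 lists 82739 (replicate 1) and 64675 (replicate 2). Each interval carries the authors' −log10 q, the strength of its summit within that library. Medians lay between 10.1 and 11.9, and the lowest value of each list lay just above 2. Read depth is unknown, and lists of unequal length and depth set different limits on what could be called, so values are set side by side and not compared across libraries as levels. A region is called gained if it had an interval in each FOXD2 library and in no control, and lost if the reverse held. Of 10 colorectal epithelial marker genes, 8 had a gene-end interval in all 4 libraries, among them EPCAM, CDH1, KRT8 and CDX2, and VIL1 and KRT20 had one in some. Of 15 leukocyte, fibroblast and endothelial markers, 4 had one in all 4 libraries (ITGAM, COL1A1, COL1A2 and KDR), while PTPRC, CD14, DCN, LUM, PECAM1 and VWF had none in any. CDH5 had a gained gene-end region, and CD3E and KDR had a lost one. The part of other cells in the results below was not tested.

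RefSeq promoter windows (GRCh38.p14, the build of the files) were given for 5 of the 10 genes: TMPRSS11D, TMPRSS11E, TMPRSS11F, HPN and SPINT1. The 250 bases upstream of the start site are printed for 4 of them. The 3 paralogues from the chromosome 4 cluster differ in whether the window was open, and SPINT1 is shown as a window with an interval in every library. Sequences run 5′ to 3′ on the strand of the gene, and capitals mark matches to the motifs searched.
TMPRSS11F (chr4:68129870-68130119, minus strand): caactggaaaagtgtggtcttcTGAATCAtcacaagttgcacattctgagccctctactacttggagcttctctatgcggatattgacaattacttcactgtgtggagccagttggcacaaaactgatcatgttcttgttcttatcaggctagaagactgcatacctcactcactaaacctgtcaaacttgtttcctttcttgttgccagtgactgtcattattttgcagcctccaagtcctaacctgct
TMPRSS11D (chr4:67884003-67884252, minus strand): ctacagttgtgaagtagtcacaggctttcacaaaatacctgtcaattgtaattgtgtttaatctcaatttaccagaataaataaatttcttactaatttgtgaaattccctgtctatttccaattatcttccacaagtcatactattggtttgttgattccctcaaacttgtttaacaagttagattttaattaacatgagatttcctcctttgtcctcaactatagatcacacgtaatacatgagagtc
TMPRSS11E (chr4:68447213-68447462, plus strand): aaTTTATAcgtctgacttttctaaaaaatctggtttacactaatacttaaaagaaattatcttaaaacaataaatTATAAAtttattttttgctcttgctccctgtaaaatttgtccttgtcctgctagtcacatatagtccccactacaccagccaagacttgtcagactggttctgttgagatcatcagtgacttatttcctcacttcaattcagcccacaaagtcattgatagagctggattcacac
SPINT1 (chr15:40843798-40844047, plus strand): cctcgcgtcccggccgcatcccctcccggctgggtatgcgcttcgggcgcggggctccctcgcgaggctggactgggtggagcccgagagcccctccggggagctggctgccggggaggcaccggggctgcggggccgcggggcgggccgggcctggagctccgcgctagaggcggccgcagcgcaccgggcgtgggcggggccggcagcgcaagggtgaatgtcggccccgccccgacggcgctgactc

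These 250-base stretches differed widely in composition. GC content was 43.2% for TMPRSS11F, 31.6% for TMPRSS11D and 34.4% for TMPRSS11E, each with 1 CpG, against 80.4% with 35 CpG for SPINT1, where the median of 35116 promoter windows was 58%. At TMPRSS11F both FOXD2 libraries covered all 250 bases and the controls covered 0. At TMPRSS11E only FOXD2 replicate 2 reached the stretch, over 140 bases. No library had an interval on the TMPRSS11D stretch. The SPINT1 stretch was covered over 227 to 250 bases in all 4 libraries. At HPN control replicate 2 covered 183 bases and FOXD2 replicate 2 all 250, and the other 2 libraries covered 0.

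Motifs were searched on both strands of the whole 300-base windows, which end 50 bases into the gene. The forkhead motif TGTTTAC matched in 0 of the members' windows, and in 3.42% of all windows. The AP-1 motif was searched in a loose form, TGANTCA with any base at N, which reads alike on both strands. It matched in TMPRSS11F from 228 bases upstream of the start site, with A at that base (TGAATCA). In SPINT1 it matched across the start site, with C there (TGACTCA). That match begins 6 bases upstream and so runs past the printed stretch. The loose form is in 7.71% of all windows. The TATA box motif TATAAA, in 11.5% of windows, matched TMPRSS11E at 248 bases upstream on the opposite strand and at 175 bases upstream. The ETS motif GGAAGT, in 22.8% of windows, matched only a second SPINT1 window, at 72 bases upstream on the opposite strand. The grainyhead motif AACCNGTT, in 1.73%, matched none. A match describes letters only.

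Gene ends, meaning the 1000 bp to either side of each end of a gene, told the 10 genes apart. ST14, PRSS8, SPINT1, TMPRSS2 and HPN had a gene-end region shared by all 4 libraries, as did 65.6% of all protein-coding genes. That of HPN, a plus-strand gene, lay at the far end and not at the start site. TMPRSS11F and TMPRSS13 had a gained gene-end region, and TMPRSS11E had a lost one. TMPRSS4 had a gene-end interval in 3 of 4 libraries, and TMPRSS11D had none. Over all genes 0.936% had a gained and 2.14% a lost gene-end region, and nothing is read from the members' 2 gained ends, because they chose the set.

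**Figure D1:**
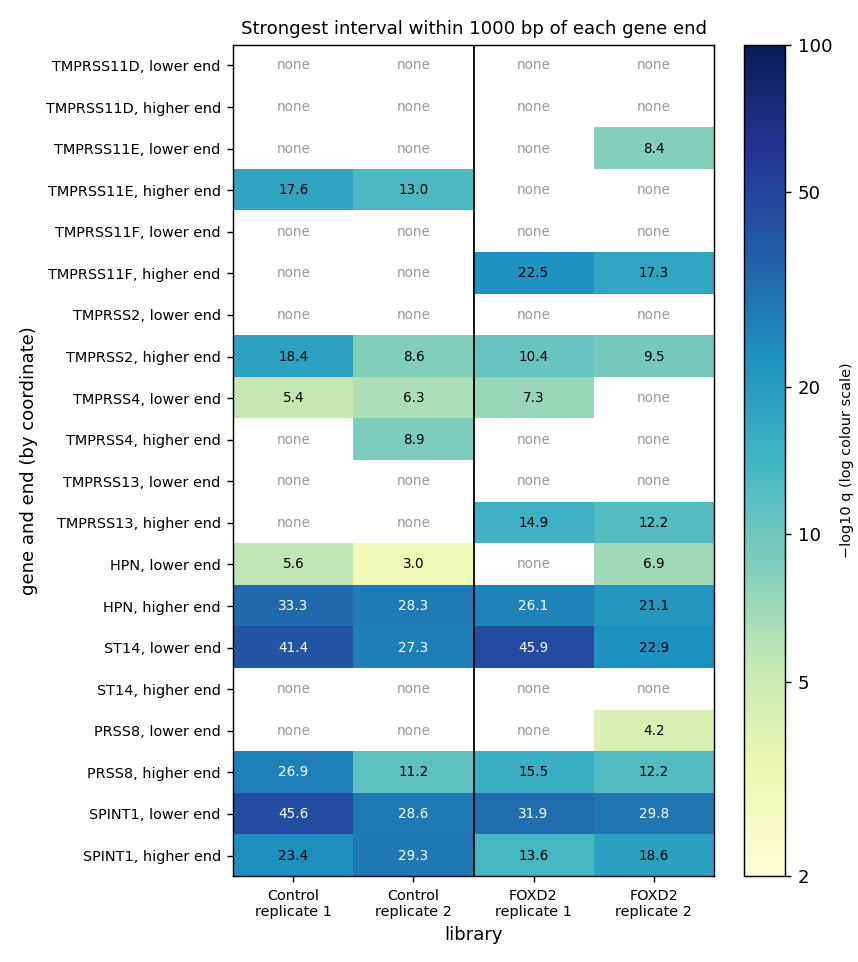
Strongest interval within 1000 bp of each end of the 10 genes (rows) in each library (columns), as the authors' −log10 q on a log colour scale, with "none" where no interval was called. The higher-coordinate ends of TMPRSS11F and TMPRSS13 have values in the FOXD2 columns only, while the lower ends of ST14 and SPINT1 have values from 22.9 to 45.9 in every column.

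TMPRSS11F (chromosome 4, 68053198 to 68129869, hg38), an airway trypsin-like protease relative, had its gained region at 68129764 to 68130290, across the start site. The −log10 q was 22.5 in FOXD2 replicate 1 and 17.3 in FOXD2 replicate 2, and there was no interval in either control. The summits lay 172 and 78 bp upstream of the start site, and the FOXD2 intervals shared 382 bp. By the lower of its within-list percentiles in the FOXD2 libraries this region ranked 90 among the 4777 gained regions of the genome, and TMPRSS11F ranked 2 among the 187 genes with a gained gene-end region. A weaker gained region lay 22625 bp beyond that end, at 68152494 to 68153000, with −log10 q of 5.77 and 11.8. Between them, at 68132354 to 68132952, lay a region that both controls (6.26 and 5.26) and FOXD2 replicate 1 (6.19) had.

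TMPRSS13 (chromosome 11, 117900641 to 117929402), a mosaic serine protease of epithelial surfaces, had its gained region across the higher-coordinate end, at 117929136 to 117929663. The −log10 q was 14.9 and 12.2 in FOXD2 replicates 1 and 2, with no interval in the controls, and the summits lay 32 and 43 bp from the gene end. It ranked 426 among the 4777 gained regions, and TMPRSS13 ranked 13 among the 187 genes. The table gives no strand for this gene. Within the same window 3 regions were lost, the most of any of the 10 genes. The first lay inside the gene, at 117915302 to 117915762, with −log10 q of 10.3 and 9.19 in control replicates 1 and 2. The second lay 3047 bp beyond the gained end, at 117932449 to 117932795 (6.89 and 5.94), and the third 39095 bp below the gene, inside FXYD6 (10.1 and 7.03). The strongest sites of the window were called in every library. A region inside the gene, at 117907171 to 117907813, was the strongest in the controls, at 73.2 and 79.5, with 60.2 and 34.2 in FOXD2 replicates 1 and 2. A region 17261 bp above the gene, at 117946663 to 117947587, was the strongest in the FOXD2 libraries, at 68.6 and 39.8, with 62.7 and 70.3 in the controls. Called intervals in the window numbered 9 and 7 in the controls and 6 in each FOXD2 library, so the count was lower with FOXD2 although the gene end itself was gained.

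The other genes of the TMPRSS11 cluster did not share one pattern. TMPRSS11D (67820876 to 67884002), which encodes human airway trypsin-like protease, had a gained region at 67885797 to 67886567, 1795 bp beyond its start and so just outside the gene-end zone. It had −log10 q of 18.9 and 9.30 in FOXD2 replicates 1 and 2, summits 1989 and 1972 bp upstream of the start site, and no interval in the controls. It was gained under a gene-end zone of 2000 bp as well, which made TMPRSS11D the third gene with a gained end, but not where an interval had to cover at least 50% of a region, a requirement that left TMPRSS11D with 0 gained regions. TMPRSS11E (68447463 to 68497604), the squamous-cell protease DESC1, went the other way at its far end. A region at 68498441 to 68498728, 837 bp past the end of this plus-strand gene, had −log10 q of 17.6 and 13.0 in the controls and no interval in the FOXD2 libraries. At its start site FOXD2 replicate 2 alone had an interval, with −log10 q of 8.36 and its summit 55 bp upstream.

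**Figure D2:**
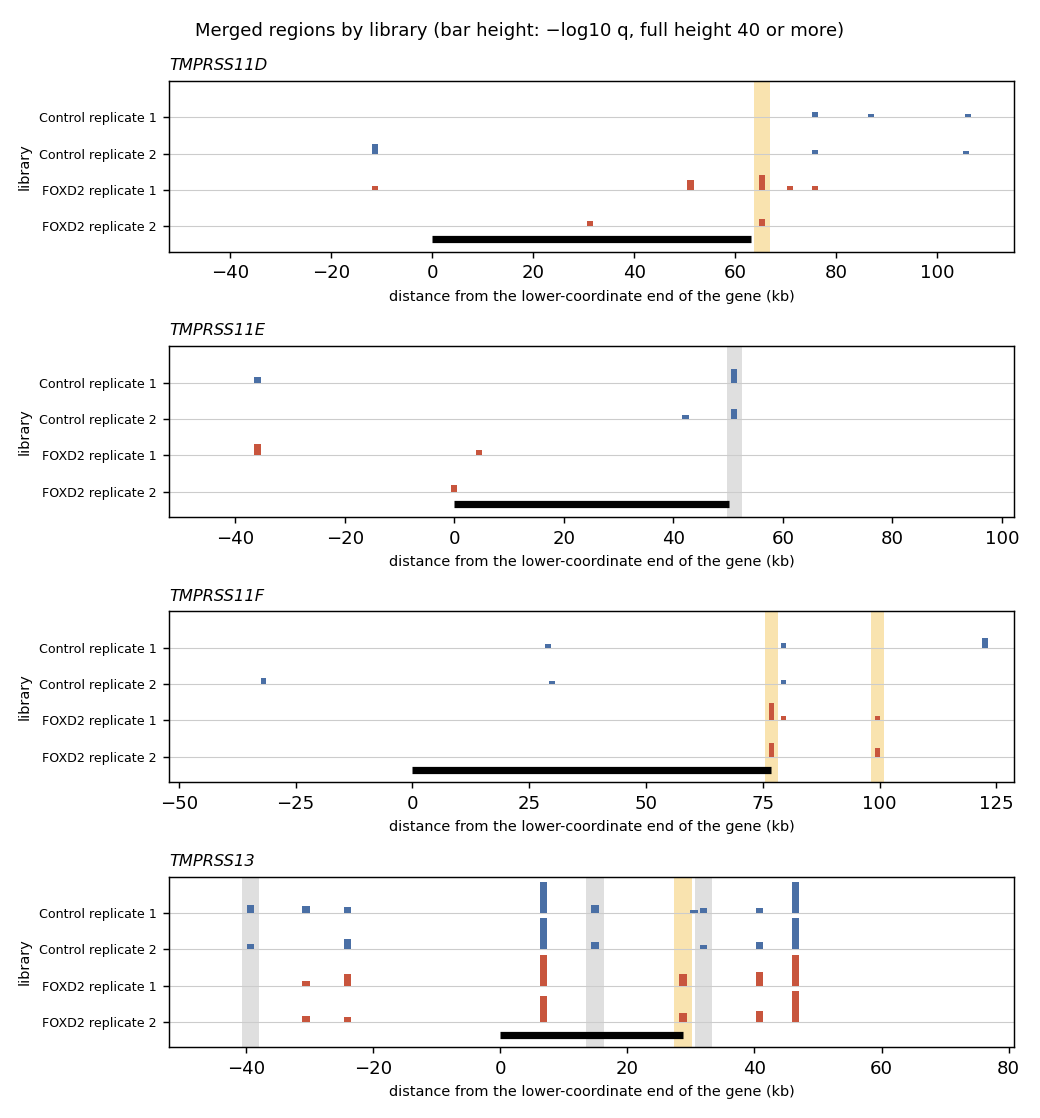
Regions by library around TMPRSS11D, TMPRSS11E, TMPRSS11F and TMPRSS13, plotted by distance in kb from the lower-coordinate end of the gene (black bar), with bar height giving −log10 q up to 40 and bars drawn at a fixed width for visibility. Yellow marks gained and grey marks lost regions: TMPRSS11D, TMPRSS11F and TMPRSS13 each have a gained one at or near the higher-coordinate end, TMPRSS11F has another 22625 bp beyond it, and TMPRSS13 also has 3 lost ones.

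The whole stretch from 50 kb below TMPRSS11D to 50 kb above TMPRSS11E (chromosome 4, 67770876 to 68547604) held 28 regions, or 3.60 per 100 kb. The density over the genome was not counted. It had 13 intervals in each control, 14 in FOXD2 replicate 1 and 7 in FOXD2 replicate 2. Of the 28 regions 3 were gained, 3 lost and 2 shared by all 4 libraries. Over all regions of the genome 3.89% were gained and 3.87% lost. The gained ones here include the TMPRSS11F region that chose the set, so nothing is read from these counts. The stronger of the shared ones, with −log10 q from 52.5 to 84.5, lay at the higher-coordinate end of YTHDC1, which encodes an RNA-binding protein and is no protease gene. No shared region lay in the windows of the 3 TMPRSS11 genes themselves (0 of 21), against 48 of 120 in the windows of the other 7 genes. Over the regions within 50 kb of any protein-coding gene 34.7% were shared. Of the 48, only 17 had the member as the nearest gene, and 16 lay at an end of another gene. The contrast is thus one between windows with their neighbours, not between the protease genes alone. Gained and lost regions were interspersed along the stretch, with the lost one at 67988434 to 67988823 (12.1 and 16.3 in the controls) lying 64375 bp from TMPRSS11F and outside its window.

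TMPRSS2, TMPRSS4 and hepsin held gained and lost regions away from their ends. TMPRSS2 (chromosome 21, 41464305 to 41508158), which encodes the androgen-responsive protease that also primes viral glycoproteins, kept a region across its higher-coordinate end at 41507732 to 41508739. Its −log10 q was 18.4 and 8.64 in the controls, against 10.4 and 9.47 with FOXD2, and the groups overlapped. Inside the gene a region at 41466321 to 41466712 was lost (6.74 and 4.73 in the controls) and one at 41473260 to 41473726 was gained (7.0 and 5.22 in FOXD2 replicates 1 and 2). These weak sites lay 2016 and 8955 bp from its lower-coordinate end. The lost one was no longer called with intervals of −log10 q 5 or more or with lists of equal length, nor the gained one with 50% coverage of a region. Its window had 5 intervals in each control against 10 and 7 in the FOXD2 libraries.

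TMPRSS4 (chromosome 11, 118077078 to 118125505), a protease studied in carcinomas, had a weak interval at its lower-coordinate end in both controls (5.44 and 6.31) and in FOXD2 replicate 1 (7.34), but not in FOXD2 replicate 2. A region inside the gene at 118111129 to 118111946 was gained, with −log10 q of 4.81 and 5.48, in the weaker part of both FOXD2 lists. A region 10122 bp above the gene, inside SCN4B, was lost (8.15 and 3.47). Neither was called with intervals of −log10 q 5 or more or with lists of equal length. The groups overlapped in the number of intervals, 8 and 11 in the controls against 11 and 7.

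HPN (chromosome 19, 35040506 to 35066573) encodes hepsin, a liver-rich protease that can activate hepatocyte growth factor. It had the most regions of the 10 windows, 25, of which 10 were shared. The region just past the far end of this plus-strand gene, at 35066835 to 35067409, was in all libraries. Its −log10 q was 33.3 and 28.3 in the controls, against 26.1 and 21.1 with FOXD2. At the lower-coordinate end the intervals were weak (5.59 and 3.00 in the controls, 6.95 in FOXD2 replicate 2) and FOXD2 replicate 1 had none. The gained region of this window was among the stronger ones, at 13.7 and 22.2 in FOXD2 replicates 1 and 2. It lay 40932 bp from HPN, at 35107505 to 35107848 inside the gene model LOC124904701, and so was nearer to other genes than to HPN. A lost region 8147 bp above HPN was weak in the controls (4.87 and 4.96) and was not called with intervals of −log10 q 5 or more or with lists of equal length.

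The matriptase gene, its partner and its inhibitor had open gene ends in every library. ST14 (chromosome 11, 130159782 to 130210362) had a region across its lower-coordinate end at 130159444 to 130160333 with −log10 q of 41.4 and 27.3 in the controls, against 45.9 and 22.9 with FOXD2. PRSS8 (chromosome 16, 31131433 to 31135727) had one across its higher-coordinate end at 31135051 to 31135976, with 26.9 and 11.2 in the controls and 15.5 and 12.2 with FOXD2. SPINT1 (chromosome 15, 40844048 to 40858207) had one across its start site at 40843734 to 40845054, with 45.6 and 28.6 in the controls and 31.9 and 29.8 with FOXD2. The groups overlapped in these 3 regions. At the other end of SPINT1, 2 regions were in every library. In the one at 40857610 to 40858154 the groups overlapped, with 17.9 and 17.5 in the controls, against 12.7 and 18.6 with FOXD2. The region 931 bp past the gene, at 40859138 to 40859630, had 23.4 and 29.3 in the controls, against 13.6 in each FOXD2 library. The groups did not overlap there. The same held for other shared regions of the windows, among them the one just past the far end of HPN. The share of such regions over the genome was not counted, so nothing is read from it. Shared regions over the genome also had lower medians in the FOXD2 libraries, and read depth is unknown.

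Inside ST14 the differing regions were weak. Regions at 130181012 to 130181443 (6.42 and 5.63 in the controls) and 130197500 to 130197968 (6.54 and 8.83) were lost, and one at 130181816 to 130182215 (4.40 and 7.26 in FOXD2 replicates 1 and 2) was gained. Between the first lost region and the gained one, at 130181448 to 130181647, lay an interval of FOXD2 replicate 1 alone (2.63). The opposite calls there thus depend on where the interval edges fell. The intervals of the controls in the first lost region shared only 9 bp, and those in the second 43 bp, so the libraries did not mark the same bases there. With the requirement that an interval cover at least 50% of a region, ST14 had 0 lost regions. It had 0 gained regions with intervals of −log10 q 5 or more, with 500 bp windows around the summits, or with lists of equal length. The summit windows also left it 1 lost region. ST14 had 14 and 13 intervals in the controls, against 12 and 11 with FOXD2.

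PRSS8 and SPINT1 lie among closely packed genes, and 3 of their 4 gained regions were nearer to another gene. For PRSS8 one gained region, at 31149864 to 31150697 (9.48 and 4.33), lay across the higher-coordinate end of PRSS36, which encodes another serine protease, and covered its RefSeq promoter window at least in part. Another, at 31095893 to 31096127 (8.46 and 9.35), lay at an end of the gene model LOC124903680, 35306 bp from PRSS8. With intervals of −log10 q 5 or more the region at PRSS36 was no longer gained, and PRSS8 had 1 gained and 1 lost region. SPINT1 had gained regions 8528 bp below the gene (8.53 and 10.0 in FOXD2 replicates 1 and 2) and 6175 bp above it (5.07 and 6.89), and a lost one 44963 bp below, inside DNAJC17 (8.06 and 6.05 in the controls). With lists of equal length SPINT1 had 1 gained region. PRSS8 had 12 and 10 intervals in the controls and 13 in each FOXD2 library, and SPINT1 had 14 and 12 against 16 in each.

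**Figure D3:**
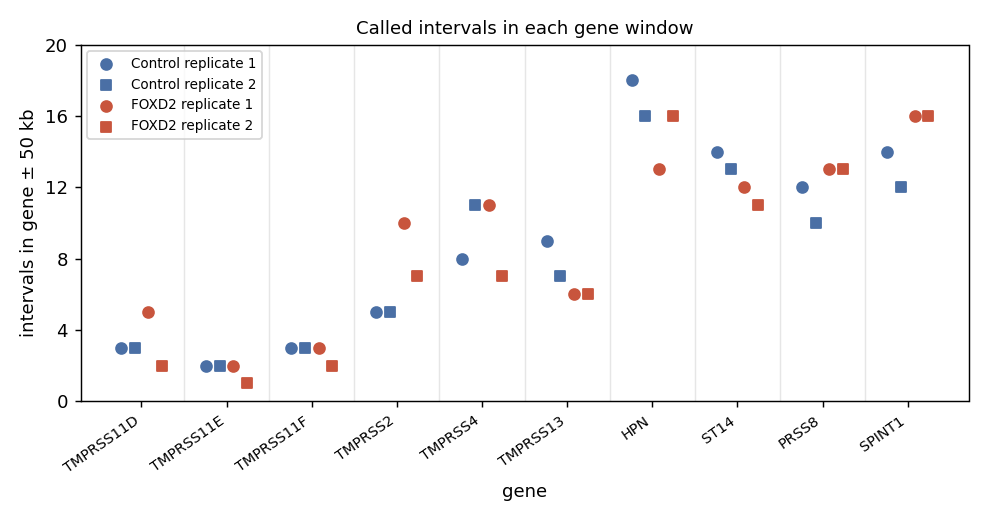
Number of called intervals in each gene and 50 kb to each side, with 1 point per library (blue for control, red for FOXD2, circles for replicate 1, squares for replicate 2). TMPRSS2, PRSS8 and SPINT1 have both FOXD2 points above both control points, and TMPRSS13 and ST14 have both below.

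By number of intervals, 3 of the 10 windows (TMPRSS2, PRSS8 and SPINT1) were higher with FOXD2 than in the controls without overlap, against 7.96% of all protein-coding gene windows, and 2 (TMPRSS13 and ST14) were lower without overlap, against 13%. The differences were of 1 to 5 intervals. Summed over the 10 windows the intervals numbered 88 and 82 in the controls, against 91 and 81 with FOXD2, and covered 43.9 and 42.3 kb against 45.8 and 41.7 kb. The groups overlapped in both sums. With 2 libraries against 2 the smallest two-sided p that an exact permutation test can give is 0.333, so none of these differences could pass a threshold of 0.05.

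Over the 141 regions of the 10 windows, 12 were gained (8.51%) and 10 were lost (7.09%), and 48 were shared by all 4 libraries (34.0%). Over all regions of the genome 3.89% were gained and 3.87% lost. Over the regions within 50 kb of any protein-coding gene the shares were 3.84% and 3.76%, and 34.7% were shared. Both kinds of differing region made up a larger share here than over the genome, while the shared ones did not. No test is given, since the set was chosen with these results known. Since TMPRSS11F and TMPRSS13 chose the set, the counts without them are also given: 9 gained (7.26%) and 7 lost (5.65%) of 124 regions. Leaving out a library relaxes the calls everywhere. Without FOXD2 replicate 1 there were 24 gained regions in the windows and without FOXD2 replicate 2 there were 29, where 12.0% and 19.5% of all regions were then gained. Lost regions numbered 21 without control replicate 1 and 25 without control replicate 2, where 14.4% and 17.0% of all regions were lost. The windows' totals of regions under these settings are not given, so their shares cannot be set beside these percentages.

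Counted by gene, 9 of the 10 windows held a gained region, all but TMPRSS11E, against 27.9% of all protein-coding gene windows. Nothing is read from that count, because TMPRSS11F and TMPRSS13 were chosen for a gained region. Of the other 8 windows 7 held one. A lost region was in 7 windows, against 31.7%, and 6 windows held both kinds, for which no share over all genes was counted. The members' windows held a median of 15 regions, against 10 over all genes, which bears on how often a window holds any differing region. Of the 12 gained regions 5 overlapped the member gene, counting those across the ends of TMPRSS11F and TMPRSS13, and 8 had the member as the nearest protein-coding gene. Of the 10 lost ones these numbers were 4 and 7.

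**Figure D4:**
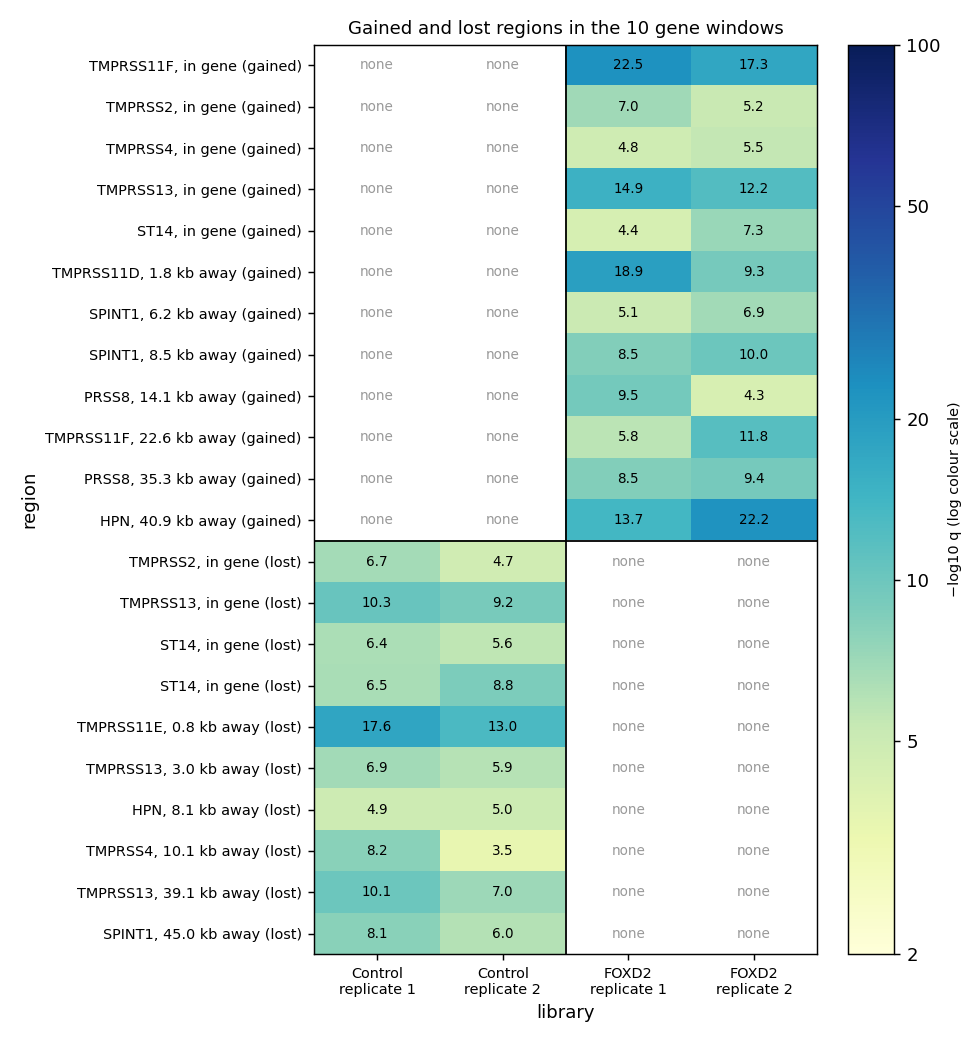
The 12 gained and 10 lost regions of the 10 windows (rows, ordered by distance from the gene) with the authors' −log10 q in each library (columns, log colour scale) and "none" where no interval was called. The strongest gained values belong to the TMPRSS11F gene end, the region 40.932 kb from HPN and the region near TMPRSS11D, and the strongest lost values to TMPRSS11E.

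Most of these regions were modest in strength. The median −log10 q of the gained ones was 8.49 and 9.33 in FOXD2 replicates 1 and 2, against 7.81 and 7.38 over all gained regions of the genome. That of the lost ones was 7.47 and 5.99 in control replicates 1 and 2, against 7.22 and 7.03. The shared regions of the windows had medians of 26.7 and 24.1 in the controls, against 23.6 and 19.2 with FOXD2. Over all shared regions of the genome these medians were 25.9 and 24.7, against 22.8 and 17.7. The lower medians in the FOXD2 libraries were thus not particular to these windows. Read depth is unknown, so no difference in level is read from them. Gained regions had a median width of 494.5 bp and shared ones 792 bp. The paired intervals behind a gained region overlapped by 120 to 602 bp, and those behind a lost one by 9 to 281 bp.

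At the 50 kb limit, the farthest differing region inside a window was the lost one 44.963 kb from SPINT1. The nearest outside was a gained region 51.817 kb from HPN, at 35118390 to 35118959, with −log10 q of 6.79 and 4.95 in FOXD2 replicates 1 and 2. For gene ends, the lost region 837 bp from TMPRSS11E was the last inside and the gained region 1795 bp from TMPRSS11D the first outside.

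The genes most like TMPRSS11F in the strength of a gained gene-end region, by distance between within-list percentiles in the 2 FOXD2 libraries, were CAPN8 (5.32 percentile points apart), SCGB1D2 (7.18) and ACCSL (7.25). Those nearest to TMPRSS13 were CDAN1 and TTBK2, which share a region (2.72), and COL17A1 (5.20). Likeness over 2 libraries is a weak measure, and all these genes were gained by the same definition.

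Another 32 genes of the pathway, listed for their function, are given for comparison. The list was drawn up with earlier results of these data known. Among 12 further membrane-anchored serine protease genes, 5 inhibitor genes and 15 substrate or receptor genes, 0 had a gained and 0 a lost gene-end region. Over all protein-coding genes only 0.936% had a gained and 2.14% a lost one, so nothing is read from these counts. In their windows 10 of 427 regions were gained (2.34%) and 16 lost (3.75%), against 3.84% and 3.76% for regions near any gene. SPINT2, which encodes the related inhibitor HAI-2, had a gene-end interval in all 4 libraries, as did SERPINA1, SERPINA5, SERPINB5, TMPRSS9, CORIN, PRSS21, F2RL1 (the receptor PAR2), SCNN1A and SCNN1G (epithelial sodium channel subunits), MET, MST1R, PLAUR, FURIN and EPCAM. In 14 genes there was none in any library, among them TMPRSS11A and TMPRSS11B of the chromosome 4 cluster, enteropeptidase (TMPRSS15), HGF and PLAU.

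The pathway genes with most differing regions had 2 each. MET, the hepatocyte growth factor receptor gene, had 2 lost regions, 1 inside the gene (5.87 and 7.11 in the controls) and 1 at 116801055 to 116801486, 2678 bp above it (19.6 and 11.1). PLAUR, the urokinase receptor gene, and PRSS21, the testisin gene, also had 2 lost and 0 gained. HGF and TMPRSS11A had 1 of each, and the gained one of TMPRSS11A is the region near TMPRSS11D. SERPINB5, the maspin gene, is named after its values were seen: its gained region at 63506106 to 63506444 (9.41 and 12.1 in FOXD2 replicates 1 and 2) lay 1021 bp from the gene, just outside the gene-end zone.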

How the data were processed

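ATAC-seq intervals of 2 control and 2 FOXD2 libraries were used as deposited, 1 list per library, with hg38 coordinates. Tools named, per the submitters' processing notes, were MACS2 2.2.7.1, Bowtie2 2.3.4.1, cutadapt 3.4, bedtools and Picard. Their settings, and any shift of read ends for Tn5, were not given in the sources used here. Each peak has the authors' fold enrichment (a ratio at the summit over local background), −log10 p and −log10 q, which are values within its own list. The deposited score, derived from −log10 q, and the −log10 p were not used. Depth is unknown, so no interval or floor is given.

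Intervals on chromosomes 1 to 22 and X that overlapped by 1 bp or more were merged over the 4 libraries (Python 3.11.15, pandas 2.3.3), and between 0.208% and 0.251% of each list was left out. The merging was tested on simulated data. The strongest interval of a library gave its value in a region. Gene positions came from RefSeq (GRCh38.p14), whose gene table has no strand or exons, so both ends were used and placement in exons or introns is left out. Named are the 10 members, every differing region in their windows, neighbouring genes with an end within 1000 bp of one, the pathway genes with most differing regions, and the 3 genes nearest in strength to each gained end. The rule asked for 6 pathway genes, but 5 had 2 differing regions and the rest tied. Members and lists were chosen with earlier results of these data known.

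Presence or absence was described without a test. Alternatives were intervals of −log10 q 5 or more, summit windows of 500 bp, 50% coverage of a region, lists of equal length, flanks of 20 and 100 kb, nearest-gene assignment, gene ends of 500 and 2000 bp, and leaving out each library.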

Additional observations from a re-analysis of the deposited data

How the results depend on the processing

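The 12 gained and 10 lost regions of the windows came to 9 and 8 with intervals of −log10 q 5 or more, 12 and 10 with summit windows, 11 and 8 with 50% coverage, 9 and 7 with lists of equal length, 9 and 8 with 20 kb flanks, and 8 and 7 where the member had to be the nearest gene. With 100 kb flanks there were 16 gained and 18 lost. Leaving out 1 library gave 13 to 29 gained and 13 to 25 lost regions. The number of genes with a gained end was 3 with ends of 2000 bp and 2 to 4 with 1 library left out. The number with a lost end was 0 with ends of 500 bp (TMPRSS11E no longer counted), 2 with 50% coverage (TMPRSS4 was added) and 1 to 2 with 1 library left out. These counts have no total or share over all genes beside them, so they show only how the calls move. Of 160 counts for single genes under the alternatives that apply to them, 105 were within 1.5 times the reported count, and small counts move easily. No paired analysis was possible because the results come from no test, and the labels give same-numbered libraries nothing in common but the number. Without read counts, a region missing from a list may be open below the caller's limit.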
